A study of Mus musculus with 6 samples.

Results

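The major histocompatibility complex (MHC) genes and their partners in antigen presentation were followed in mouse dorsal root ganglia, which house the cell bodies of sensory neurons, 3 days after a burn injury. Members were every gene symbol in the deposited count files that starts with H2-, the mouse MHC prefix, together with B2m, Cd74, Ciita, Nlrc5, Tap1, Tap2, Tapbp, Psmb8 and Psmb9. This rule, which used names and no measured value, gave 53 of 38926 symbols. By role, 37 belong to class I, 14 to class II and 2 to neither class. On GRCm38, 48 of them lie on chromosome 17 between positions 33915899 and 37483552, and 4 lie elsewhere: B2m on chromosome 2, Nlrc5 on 8, Ciita on 16 and Cd74 on 18. H2-Ke2 was not placed by its symbol.

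Both groups were male wild-type C57BL/6 mice aged 6 to 8 weeks, and whole ganglia of levels L3, L4 and L5 were used. The burn group, collected on day 3 after the injury, has 3 libraries and the control group 3, made from total RNA with a stranded kit. Burn 3 is the library titled BURN_IP, where IP is read here as ipsilateral, and the labels give no side for burn 1 and burn 2. Nothing in the labels ties a library to an animal of its own, and p-values therefore cover a spread that may be technical. Reads in genes ranged from 22023565 to 70002671 in burn libraries and from 17273908 to 81968142 in control libraries, and burn 3 and control 3 were the deepest of their groups. Of the markers of sensory neurons, Prph, which encodes peripherin, averaged 1455 ± 160 CPM (counts scaled to the same library size) in burn and 1682 ± 122 CPM in control libraries, and the nociceptor sodium channel gene Scn10a 901 ± 54.2 CPM in burn and 833 ± 62.1 CPM in control libraries (SD, n = 3 each), so these defining markers of the labelled tissue were present.

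Class I molecules display peptides from inside the cell to CD8 T cells and natural killer cells. Their heavy chain pairs with the light chain beta-2-microglobulin, on peptides cut by the proteasome and carried into the endoplasmic reticulum by the Tap transporter. Class II molecules are pairs of an alpha and a beta chain that show peptides from engulfed material to CD4 T cells, and they are carried mainly by macrophages, dendritic cells and B cells. The invariant chain Cd74 escorts new class II pairs, and H2-DM exchanges its fragment for peptide. In both classes interferon gamma is a known inducer, acting through the transactivators Nlrc5 for class I and Ciita for class II.

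The promoter sequence of both classes was also searched, as a description. The stretches below come from RefSeq promoter windows on GRCm38.p6, which run from 250 bases before to 50 after a gene's start. They are shown because they hold the letters that the search matched in most class II genes with a promoter entry. Capitals mark GNAAC, letters within the X box bound by the RFX complex, and ATTGG, the reversed CCAAT of the Y box bound by NF-Y. All are printed 5′ to 3′ on the gene's strand.
H2-Aa, chr17:34287861-34287910, minus strand: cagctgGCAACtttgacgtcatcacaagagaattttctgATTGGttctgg
H2-Eb1, chr17:34305770-34305818, plus strand: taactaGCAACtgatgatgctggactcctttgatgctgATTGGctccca
H2-Eb2, chr17:34325537-34325585, plus strand: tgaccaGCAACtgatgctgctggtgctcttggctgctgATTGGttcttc
H2-DMb1, chr17:34153091-34153140, plus strand: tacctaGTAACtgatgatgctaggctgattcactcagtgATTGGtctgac
H2-Oa, chr17:34092297-34092346, plus strand: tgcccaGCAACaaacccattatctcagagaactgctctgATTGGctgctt
H2-Ob, chr17:34238812-34238858, plus strand: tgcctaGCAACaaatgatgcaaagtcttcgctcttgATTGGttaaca

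These 6 were the class II genes, of 8 with a promoter entry, whose window held GNAAC followed by ATTGG on the same strand with 25 to 45 bases from start to start. The spacing was 30 to 33 bases in all 6. The same search matched 2 of 27 class I genes with an entry and 3.41% of all 32851 promoter windows. It counted the pair in either orientation. The 6 class II genes and H2-M10.4 held it on the gene's strand, and H2-M2 only on the opposite strand. Letters and spacing were chosen after the sequences had been read, so the counts by class are given as a description. A match is only a match of letters, and no binding was measured here. In all, 36 of the 53 members had an entry, with 39 windows between them. Of the members at 1 CPM or more, H2-Ab1, Cd74, Ciita, H2-K2, H2-Ke2, H2-Q1, H2-T10, H2-T24, Nlrc5 and Tap2 have none.

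Among class I genes the upstream sequence of H2-K1 and H2-D1 is shown because they encode the classical heavy chains. Capitals mark GGGGATTCCCC, a near palindrome of the kind bound by NF-kappa-B, and ATTGG. For B2m, capitals mark GAAA, any 2 letters and GAAA again, the core of an interferon-stimulated element, and ATTGG.
H2-K1, chr17:34000353-34000464, minus strand: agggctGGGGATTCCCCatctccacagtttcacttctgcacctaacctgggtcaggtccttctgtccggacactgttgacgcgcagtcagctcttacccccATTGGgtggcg
H2-D1, chr17:35262917-35263028, plus strand: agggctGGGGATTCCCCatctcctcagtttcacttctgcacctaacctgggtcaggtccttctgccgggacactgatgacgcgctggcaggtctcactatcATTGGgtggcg
B2m, chr2:122147542-122147644, plus strand: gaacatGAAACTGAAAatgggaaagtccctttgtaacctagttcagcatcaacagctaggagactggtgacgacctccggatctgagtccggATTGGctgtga

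The H2-K1 and H2-D1 stretches were identical at 101 of 112 bases (90.2%). GGGGATTCCCC stood in 10 of all 32851 windows (0.0304%), of which 4 were member windows, from H2-K1, H2-D1 and H2-Q6. These letters were taken from the H2-K1 window itself, so its matches were fixed in advance and the counts are given as a description. The B2m motif, searched on both strands like the other single motifs, was in 3.44% of all windows and in those of 3 members: B2m, H2-T22 and H2-T23. Variants of these letters were not searched, so windows without a match, such as those of H2-K1 and H2-D1, may still hold such an element. CCAAT on either strand was in 37.4% of all windows and in 34 of the 39 member windows.

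Members ranged from undetected to abundant in the ganglion. Of the 53, 31 averaged at least 1 CPM over the 6 libraries and 22 lay under it, with 0 to 192 reads in total. H2-M10.3, H2-M10.6, H2-Q3 and H2-Pb had 0 reads in every library; 0 of 257333866 reads allows up to 0.0117 CPM by a limit of 3 reads, for counting error only. H2-M10 genes are known from sensory neurons of the vomeronasal organ. In the sensory neurons' ganglion studied here, the 6 H2-M10 symbols had between 0 reads and the 64 of H2-M10.2. H2-Ea-ps, the class II E alpha gene that carries a known null allele in C57BL/6 mice, had 1 read in burn 3 and 0 in the other 5 libraries. H2-Eb1, which encodes its beta chain partner, was among the most abundant members.

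**Figure D1:**
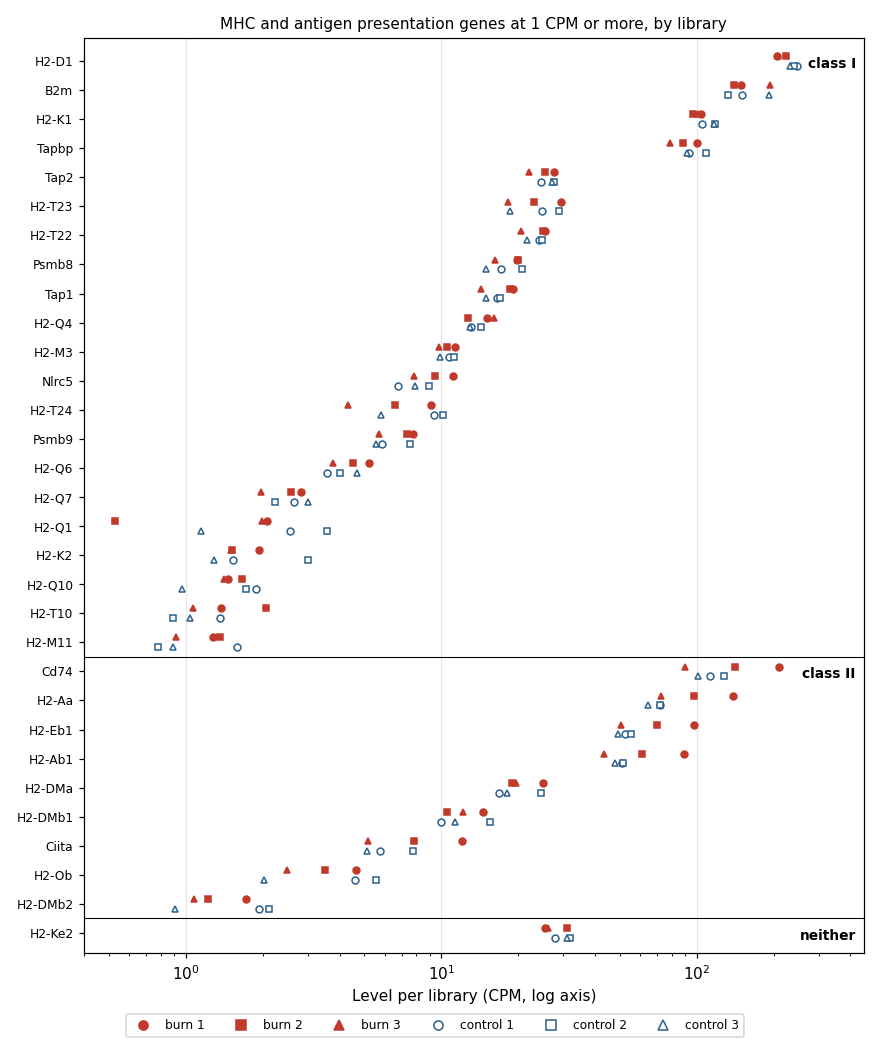
Level in CPM (log axis) of the 31 members at 1 CPM or more, in each of 3 burn libraries (filled red) and 3 control libraries (open blue), with a marker shape for each library number. H2-D1, B2m, H2-K1 and Cd74 lie at the right of the axis, and in the burn group the class II chains spread between burn 1 on the right and burn 3 on the left.

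Compared per length, as CPM per kilobase of the principal transcript, the light chain gene B2m stood highest at 187 ± 33.7 in burn and 184 ± 35.8 in control libraries (SD, n = 3 each, as for every mean below). H2-D1 followed at 101 ± 4.42 in burn and 114 ± 3.45 in control libraries. Cd74 had 104 ± 42.7 CPM per kilobase in burn and 81.0 ± 9.39 in control libraries, so that in burn libraries it could not be placed above or below H2-D1 beyond its spread. H2-Aa had 91.2 ± 29.8 in burn and 61.6 ± 3.83 in control libraries. H2-K1 had 62.1 ± 2.22 in burn and 70.1 ± 4.66 in control libraries. Its mean was thus below that of H2-Aa in burn libraries, by less than the SD of H2-Aa, and above it in control libraries. Lower levels were those of H2-Ab1, H2-Eb1 and Tapbp, at 47.3, 37.5 and 32.3 CPM per kilobase over all 6 libraries, then H2-T23 at 16.2, H2-T22 at 13.4, H2-DMa at 12.4 and Psmb8 at 11.1. The transactivators were low on this scale, with 1.21 for Ciita and 1.14 for Nlrc5.

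The burn comparison asked which genes differ in the ganglion after the injury. A member was tested if it passed a filter on low counts, which 33 of 53 did: 22 class I, 10 class II and H2-Ke2. None of the 33 passed edgeR's quasi-likelihood test at a Benjamini-Hochberg adjusted p under 0.05, and every adjusted p was 0.9998. Over all 17534 genes tested, 4 (0.0228%) were called higher and 0 (0%) lower, a background at which 0 of 33 says nothing particular about the members. At an unadjusted p under 0.05, 1 member was higher (H2-Aa) and 0 were lower, against 2.04% higher and 0.924% lower of all genes tested. DESeq2 and limma-voom also called 0 members, against 0.132% and 0.0171% of the genes they tested. The same test was run on counts simulated at this depth, with a common spread for every gene (coefficient of variation 0.22 beyond counting error). It recovered 53.7% of genes with a true log2 change of 1 and 100% of those with a change of 2. Changes smaller than a doubling would thus often be missed. These shares need not hold for genes that vary more between libraries. The spinal cord marker Gad2, for example, had a log2 fold change of 2.02 and was not called (adjusted p = 0.9998 by edgeR).

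No class II gene passed the test. The 10 tested genes of the class had a median log2 fold change of 0.23, 7 of them positive, against 0.01 and 52.1% positive for all genes tested. Within the class, log2 fold changes were higher for the chains and their direct partners than for the exchange factors. This split was not tested, and SEs reached 0.28 for Cd74 and 0.40 for H2-Ob. The 5 genes H2-Aa, H2-Eb1, H2-Ab1, Cd74 and Ciita had log2 fold changes between 0.36 and 0.57, while the 5 genes of H2-DM and H2-DO had a median of -0.18.

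H2-Aa, the alpha chain of the I-A molecule, had 139, 97.3 and 72.5 CPM in burn 1, 2 and 3, against 71.7, 72.2 and 64.5 CPM in control 1, 2 and 3. Burn 1 was nearly double any control library, whereas burn 3 lay within 1 CPM of the highest control, and the groups did not overlap. Its mean was 103 ± 33.6 CPM in burn and 69.4 ± 4.31 CPM in control libraries, a 1.48-fold difference (log2 0.57, SE 0.22; unadjusted p = 0.0354 and adjusted p = 0.9998 by edgeR). H2-Aa was the 1 tested member with all burn libraries above all controls, a pattern that 4.33% of all genes tested showed. In whole tissue, more cells of a type and more RNA per cell cannot be told apart.

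H2-Eb1, the beta chain of I-E, had 97.5, 69.9 and 50.7 CPM in burn libraries, against 52.4, 55.2 and 49.4 CPM in control libraries. Burn 3 fell among the controls. The mean was 72.7 ± 23.5 CPM in burn and 52.3 ± 2.91 CPM in control libraries (log2 fold change 0.47, SE 0.22; edgeR unadjusted p = 0.0661). H2-Ab1, the beta chain of I-A, had 89.5, 61.1 and 43.4 CPM in burn libraries, against 51.1, 51.3 and 47.7 CPM in control libraries. Here burn 3 was the lowest of all 6 libraries and burn 1 the highest, and the log2 fold change was 0.37 (SE 0.24). Cd74 had 210, 141 and 89.8 CPM in burn libraries, against 113, 128 and 101 CPM in control libraries. For the invariant chain, too, burn 1 was highest and burn 3 lay below every control, and the log2 fold change was 0.36 (SE 0.28). Ciita, the transactivator of these genes, had 12.0, 7.82 and 5.16 CPM in burn libraries, against 5.76, 7.73 and 5.14 CPM in control libraries. Burn 1 was again the highest library and burn 3 was level with the lowest control (log2 fold change 0.42, SE 0.32).

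In all 5 genes burn 1 was the highest of the 6 libraries and burn 3 the lowest of the burn libraries, and burn 1 set much of the difference. Without burn 1, the log2 fold change was 0.29 for H2-Aa, 0.20 for H2-Eb1, 0.06 for H2-Ab1, 0.01 for Cd74 and 0.07 for Ciita, and the median of class II was -0.01. Without burn 3, it was 0.78 for H2-Aa, 0.69 for H2-Eb1, 0.60 for H2-Ab1, 0.63 for Cd74 and 0.70 for Ciita, with adjusted p from 0.922 to 0.9996. The depth of sequencing divided the difference the same way. Between the deep libraries, burn 3 minus control 3, it was 0.17 for H2-Aa, 0.04 for H2-Eb1, -0.14 for H2-Ab1, -0.17 for Cd74 and 0.00 for Ciita on the log2 scale with 0.5 CPM added. Between the means of the shallower libraries, 2 a group, it was 0.69, 0.61, 0.53, 0.51 and 0.51 in the same order of genes. Burn 3 is also the library titled BURN_IP, so its depth and its title cannot be told apart.

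The exchange factors had smaller or negative log2 fold changes, although burn 1 was the highest burn library for these genes too. H2-DMa, which with H2-DM beta chains loads peptide on class II, had 25.1, 18.9 and 19.6 CPM in burn libraries, against 16.9, 24.6 and 18.1 CPM in control libraries (log2 fold change 0.10, SE 0.18). H2-DMb1 had 14.5, 10.5 and 12.2 CPM in burn libraries, against 9.97, 15.5 and 11.3 CPM in control libraries, with a log2 fold change of 0.02 (SE 0.20). For both genes control 2 was the highest control and the groups overlapped widely. H2-DMb2 averaged 1.34 ± 0.337 CPM in burn and 1.65 ± 0.654 CPM in control libraries, and its transcript shares 16.2% of its 75-base stretches with genes elsewhere, foremost H2-DMb1. H2-Ob, the beta chain of H2-DO, which restrains H2-DM in B cells, had 4.64, 3.51 and 2.49 CPM in burn libraries, against 4.59, 5.56 and 2.02 CPM in control libraries (log2 fold change -0.18, SE 0.40). Its lowest levels were in the deep libraries of both groups.

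**Figure D2:**
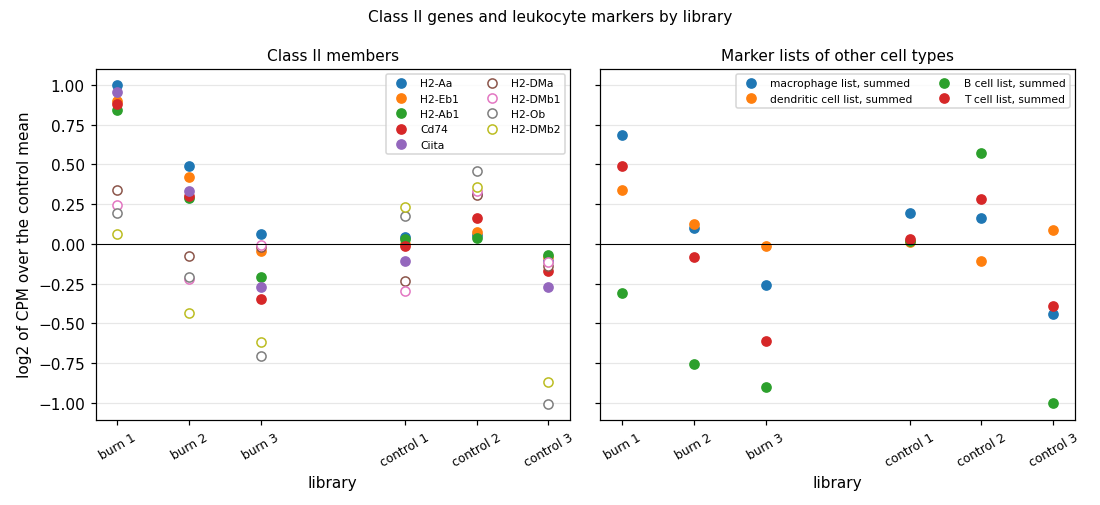
Each point is a log2 ratio of CPM to the mean of the 3 control libraries, by library, for 9 class II genes (left; filled for chains, Cd74 and Ciita, open for H2-DM and H2-Ob) and for the summed markers of 4 leukocyte types (right). The filled points lie together near 1 in burn 1 and, but for H2-Aa, below 0 in burn 3, while the B cell sum is below 0 in all burn libraries and in control 3.

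Markers of the cells that carry class II moved in part with these genes. The 12 macrophage markers summed to 518, 346 and 270 CPM in burn libraries, against 370, 361 and 238 CPM in control libraries, with burn 1 highest as for the class II chains. Of the 12, 11 had a positive log2 fold change (median 0.21) and 0 had an unadjusted p under 0.05. Fcgr1, a macrophage Fc receptor, had the lowest p (log2 fold change 0.55, SE 0.36; edgeR unadjusted p = 0.17). The 9 dendritic cell markers summed to 55.3 to 70.4 CPM in burn libraries and 51.8 to 59.2 CPM in control libraries. Of the 9, 8 had a positive log2 fold change (median 0.34). Batf3, a transcription factor of cross-presenting dendritic cells, had 1.15, 0.894 and 0.548 CPM in burn libraries, against 0.437, 0.390 and 0.364 CPM in control libraries. Its log2 fold change was 1.08 (SE 0.35), with an unadjusted p of 0.0169 and an adjusted p of 0.9998 by edgeR. Xcr1 had 0.37 (SE 0.34), Clec9a 0.05 (SE 0.33) and Ccr7, the negative one, -0.49 (SE 0.27). All 6 B cell markers went the other way, with a median log2 fold change of -0.56 and sums of 33.5, 24.6 and 22.2 CPM in burn libraries, against 42.0, 61.6 and 20.8 CPM in control libraries. Neutrophil markers, also all 6 negative, summed to 615 to 1258 CPM in burn libraries and 614 to 1468 CPM in control libraries. T cell markers summed to 2.84 to 6.10 CPM in burn libraries and 3.30 to 5.29 CPM in control libraries. No marker of the macrophage, dendritic cell, B cell or neutrophil list was at 0 in all libraries. The part of these cells in the class II difference was not tested.

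Ratios within a library do not depend on how libraries are scaled to each other; 13 were computed, chosen after levels had been seen. H2-Aa over H2-Ab1, the CPM ratio of the 2 chains of I-A, was 1.55, 1.59 and 1.67 in burn libraries, against 1.40, 1.41 and 1.35 in control libraries. The groups did not overlap, and burn 3, the burn library with the lowest class II levels, had the highest ratio. The means were 1.61 ± 0.0608 in burn and 1.39 ± 0.0309 in control libraries; an exact two-sided permutation test gave p = 0.1, the smallest that 3 against 3 libraries allow (0.325 adjusted over the 13). H2-Eb1 over H2-Ab1 was 1.09, 1.14 and 1.17 in burn libraries, against 1.02, 1.08 and 1.04 in control libraries, also without overlap. Summed CPM of H2-Aa, H2-Ab1 and H2-Eb1 over the macrophage marker sum was 0.629, 0.660 and 0.618 in burn libraries, against 0.474, 0.494 and 0.677 in control libraries. That ratio overlapped, because control 3 had the highest of all 6 (exact permutation p = 0.4).

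**Figure D3:**
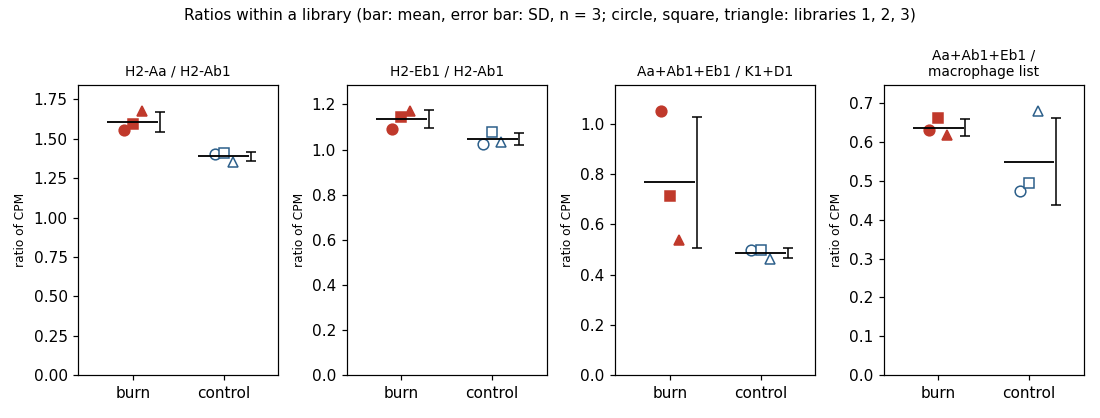
Ratios of CPM within each of 3 burn libraries (filled) and 3 control libraries (open), on linear axes from 0, with mean and SD. The first 3 ratios, including class II over class I chains (H2-K1 and H2-D1), show no overlap between groups; the ratio of class II chains to the macrophage marker sum overlaps through control 3.

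Class I was evenly divided. Its 22 tested genes divided into 11 positive and 11 negative log2 fold changes, with a median of -0.00 and a range from -0.61 to 0.42. The summed CPM of all class I members was 736 ± 16.2 in burn and 781 ± 13.8 in control libraries, against 435 ± 150 in burn and 331 ± 31.1 in control libraries for class II. The class I sum did not overlap between groups, from 723 to 754 CPM in burn and 765 to 790 CPM in control libraries. H2-D1 and H2-K1 made up much of it, and together had 309 to 320 CPM in burn and 350 to 360 CPM in control libraries. The other large parts overlapped. Q, T and M chains summed to 81.6 to 107 CPM in burn and 82.2 to 105 CPM in control libraries. Peptide loading and immunoproteasome genes summed to 137 to 175 CPM in burn and 154 to 182 CPM in control libraries, and B2m overlapped too.

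The classical heavy chains had slightly lower values in burn libraries, short of the test, and their differences were close to each other. H2-D1 had 207, 224 and 208 CPM in burn libraries, against 247, 241 and 233 CPM in control libraries. Every burn library lay below every control, and the means were 213 ± 9.30 CPM in burn and 240.4 ± 7.26 CPM in control libraries (log2 fold change -0.17, SE 0.10; edgeR unadjusted p = 0.133). H2-K1 had 104, 96.7 and 101 CPM in burn libraries, against 105, 119 and 117 CPM in control libraries. It too did not overlap, though burn 1 and control 1 were 1 CPM apart (log2 fold change -0.18, SE 0.10; edgeR unadjusted p = 0.125). These were the 2 tested members with all burn libraries below all controls, a pattern shown by 2.91% of all genes tested. Leaving out any 1 library kept both negative, from -0.21 to -0.15 for H2-D1 and from -0.23 to -0.14 for H2-K1. Their transcripts share 75-base stretches with genes elsewhere, 5.56% of those of H2-D1 and 3.10% of those of H2-K1.

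Set against the classical class I chains, the sum of H2-Aa, H2-Ab1 and H2-Eb1 over that of H2-K1 and H2-D1 was 1.05, 0.713 and 0.538 in burn libraries, against 0.497, 0.497 and 0.461 in control libraries. All burn libraries were higher, but both sums were chosen with their direction already seen, so the lack of overlap follows from that choice and is given as a description. H2-D1 over H2-K1 was 2.12 ± 0.169 in burn and 2.13 ± 0.202 in control libraries.

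B2m, the light chain, had 149, 140 and 194 CPM in burn libraries, against 151, 132 and 193 CPM in control libraries. The deep library was the highest of each group, and burn and control hardly differed (log2 fold change 0.02, SE 0.18). Nlrc5, the class I transactivator, had 11.1, 9.47 and 7.83 CPM in burn libraries, against 6.77, 8.96 and 7.87 CPM in control libraries. Like Ciita it was highest in burn 1, and the groups overlapped (log2 fold change 0.27, SE 0.19; edgeR unadjusted p = 0.186).

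Peptide supply and loading genes varied little. Tap1 and Tap2, the subunits of the peptide transporter, had log2 fold changes of 0.09 (SE 0.15) and -0.08 (SE 0.12). Tapbp, or tapasin, which bridges the transporter to class I, averaged 89.3 ± 11 CPM in burn and 97.7 ± 9.31 CPM in control libraries. Psmb8 and Psmb9, catalytic subunits of the immunoproteasome, averaged 18.7 ± 2.14 and 6.93 ± 1.07 CPM in burn libraries, against 17.6 ± 2.94 and 6.33 ± 1.08 CPM in control libraries. All 5 genes overlapped between groups, as most genes tested did. Of all genes tested, 4.33% had every burn library above every control and 2.91% every burn library below. Set beside the standard subunit that it replaces, Psmb8 made up 30.3, 26.0 and 25.8% of Psmb8 plus Psmb5 per length in burn libraries, against 22.0, 24.0 and 23.7% in control libraries. That share did not overlap (exact permutation p = 0.1, 0.325 adjusted over the 13 ratios), and Psmb5 itself averaged 27.5 ± 3.47 CPM in burn and 32.2 ± 4.98 CPM in control libraries. For the other subunit pairs the share overlapped: Psmb9 of Psmb9 plus Psmb6 was 2.43 ± 0.358% in burn and 2.08 ± 0.300% in control libraries, and Psmb10 of Psmb10 plus Psmb7 was 15.3 ± 1.31% in burn and 15.4 ± 1.30% in control libraries.

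The non-classical Q, T and M chains were 27 genes, of which 12 were tested, 6 positive and 6 negative. H2-T23, which encodes the Qa-1 heavy chain seen by natural killer receptors, had 29.5, 23.0 and 18.3 CPM in burn libraries, against 24.7, 29.0 and 18.6 CPM in control libraries. The deep library was lowest in each group, the opposite of B2m. H2-T22 and H2-T10, ligands of some gamma delta T cells, had log2 fold changes of 0.00 (SE 0.13) and 0.42 (SE 0.32), the second from 1.37, 2.05 and 1.06 CPM in burn libraries against 1.37, 0.890 and 1.04 CPM in control libraries. H2-T24 averaged 6.70 ± 2.41 CPM in burn and 8.45 ± 2.30 CPM in control libraries. H2-M3, which presents N-formylated peptides, averaged 10.6 ± 0.778 CPM in burn and 10.6 ± 0.680 CPM in control libraries. Of the Q chains, H2-Q4 had 15.2, 12.7 and 16.2 CPM in burn libraries, against 13.1, 14.4 and 13.0 CPM in control libraries. H2-Q6, H2-Q7, H2-Q10, H2-M11 and the pseudogene H2-K2 lay between 1.09 and 4.49 CPM in both group means, with log2 fold changes from -0.19 to 0.13. H2-Q1 had the most negative log2 fold change of the tested members (-0.61, SE 0.57), from 2.08, 0.530 and 1.99 CPM in burn libraries against 2.57, 3.56 and 1.14 CPM in control libraries. A single library, burn 2 with 16 reads, stood below the rest. H2-Ke2, an older symbol of the prefoldin gene Pfdn6 that lies in the region but encodes no MHC chain, averaged 27.6 ± 3.03 CPM in burn and 30.3 ± 2.20 CPM in control libraries.

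**Figure D4:**
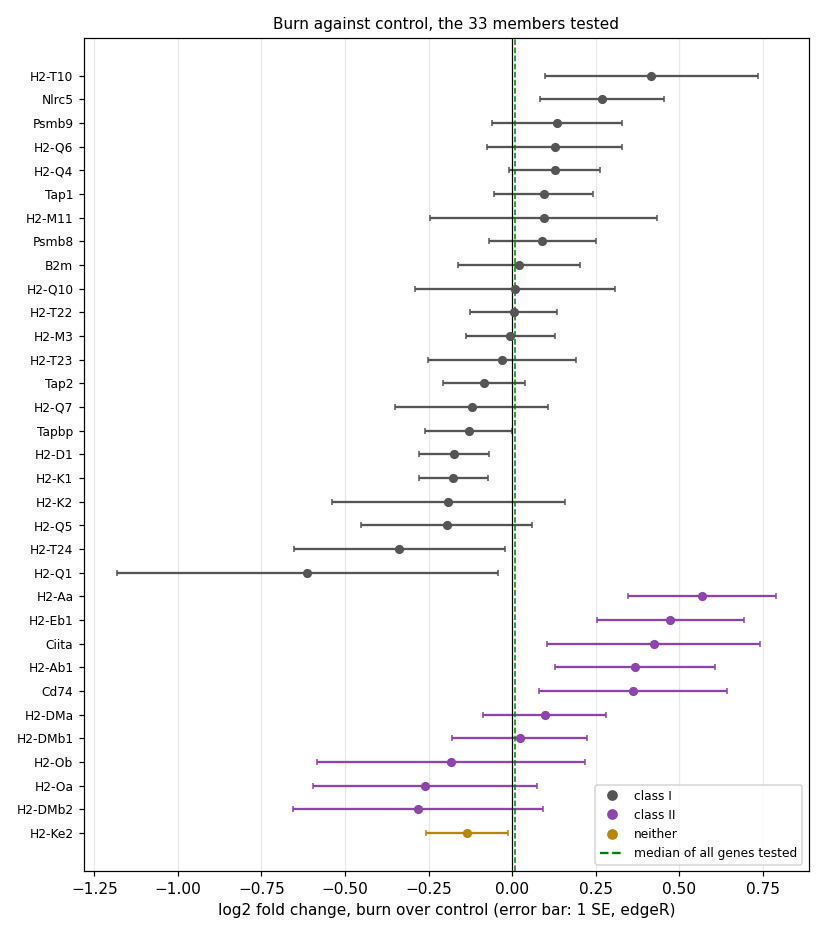
Log2 fold change of burn over control for the 33 members tested, with 1 SE from edgeR, ordered within class I, class II and neither class; the dashed line is the median of all genes tested (0.01). Class I values lie on both sides of 0, and 5 class II genes from Cd74 at 0.36 to H2-Aa at 0.57 lie to the right.

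Near-identical sequence limits how far single class I chains can be told apart. Among the 30 class I H2 genes, 20 shared at least one 75-base stretch, the length of a read, with a gene elsewhere in the annotation, with a median of 3.71% of stretches and a maximum of 21.2% for H2-Q5. H2-Q6 shared 21.1%, H2-T22 18.5% and H2-T10 16.1%, so their counts are uncertain. Of the 12 class II H2 genes, 2 did so, H2-DMb1 and H2-DMb2, and H2-Aa, H2-Ab1, H2-Eb1, B2m and Cd74 shared none. Alignments that were not unique made up 34.7 to 42.8% of all entries in the files and were not counted to genes. Exons of 13 members overlap a gene on the other strand, among them Tapbp by 904 bases, H2-T22 by 1003 and Psmb9 and Tap1 by 212 with each other, and whether reads were counted by strand is not known.

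**Figure D5:**
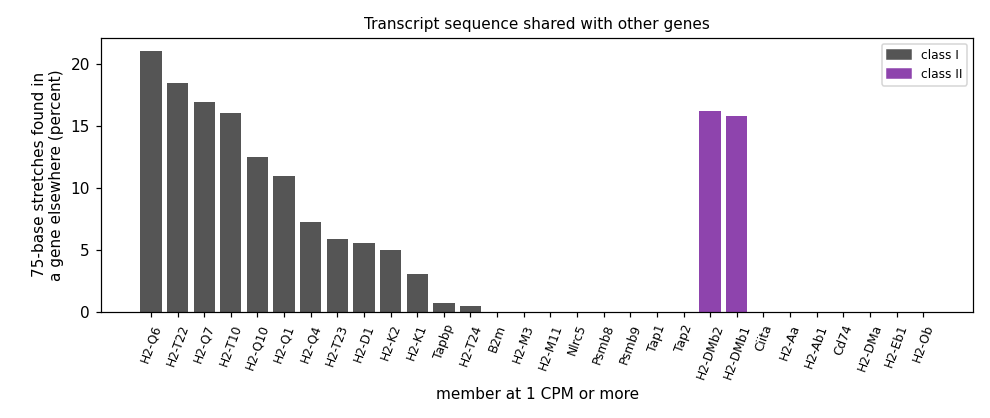
Share of each transcript's 75-base stretches that also occur in a gene elsewhere, in percent, for class I and class II members at 1 CPM or more. Values reach 21.1% for H2-Q6, whereas all class II genes but H2-DMb1 and H2-DMb2 stand at 0.

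Outside the members, 69 entries in 7 lists covered the rest of the pathway; 65 were tested, 0 were called and 0 had an unadjusted p under 0.05 by edgeR. Of 12 transcription factors of MHC genes, 7 were positive, with a median log2 fold change of 0.02. The lowest p was that of Irf2 (log2 fold change 0.22, SE 0.20, edgeR unadjusted p = 0.307). Rfx5, the X box factor, averaged 10.8 ± 1.51 CPM in burn and 9.91 ± 1.49 CPM in control libraries (log2 fold change 0.12, SE 0.17). The other RFX genes of the list were negative, Rfxap at -0.11 (SE 0.13) and Rfxank at -0.09 (SE 0.16). Interferon gamma signalling genes had a median of 0.12 with 5 of 6 tested positive, and Ifng itself had 1 to 3 reads in each burn library and 1 or 2 in each control library. Of 15 interferon response genes, 10 were positive, with a median of 0.08; the antiviral gene Mx1 had the lowest p (log2 fold change 0.43, SE 0.22; edgeR unadjusted p = 0.0845). Of 10 class I processing genes 3 were positive (median -0.04), the lowest p being that of the oxidoreductase Pdia3, with a log2 fold change of 0.13. Class II processing genes also had 3 positive, of 9, and a median of -0.04. There the ubiquitin ligase March1, which removes class II from the surface, averaged 9.71 ± 2.01 CPM in burn and 7.96 ± 1.05 CPM in control libraries. The protease Ctss, which trims Cd74, averaged 37.0 ± 8.26 CPM in burn and 31.8 ± 8.76 CPM in control libraries. Cst3, whose p lay between theirs, went the other way, with 305 ± 15.2 CPM in burn and 336 ± 52.9 CPM in control libraries. Among MHC-like chains outside the H2 group 5 of 7 tested were positive (median 0.15), and Procr, the endothelial protein C receptor, had the lowest p (log2 fold change 0.47, SE 0.23; edgeR unadjusted p = 0.0732). Costimulatory genes, whose products T cells read beside class II, had 5 of 6 tested positive and a median of 0.12, with Cd80 at 0.82 ± 0.10 CPM in burn and 0.703 ± 0.128 CPM in control libraries.

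Of 8 markers of the neighbouring spinal cord, 0 passed the test by edgeR. All 8 were positive, 7 with an unadjusted p under 0.05, with a median log2 fold change of 1.5. By library the sums were 144, 64.9 and 165 CPM in burn 1, 2 and 3, against 59.0, 66.7 and 32.6 CPM in control 1, 2 and 3, and the groups overlapped through burn 2. The part of spinal cord RNA in the members' differences was not tested. Lists of endothelium, fibroblast, satellite glia, Schwann cell, natural killer cell and skeletal muscle markers also held 0 genes that passed the test. Skeletal muscle varied most between libraries, with sums of 1300 to 8072 CPM in burn and 513 to 8874 CPM in control libraries. Of the 4 natural killer cell markers 1 was positive and 3 were negative, with a median log2 fold change of -0.20. The positive one, Prf1, had 0.443 ± 0.0129 CPM in burn and 0.271 ± 0.0225 CPM in control libraries (edgeR unadjusted p = 0.0466).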

How the data were processed

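For each of the 6 libraries the authors deposited unnormalized counts per gene symbol, from single-end reads of 75 nucleotides. Per the submitters' processing notes, the tools were STAR, SAMtools and HTSeq (no versions) and the build was mm10, or GRCm38; annotation release and strand setting: not given in the sources used here. The 5 HTSeq tally lines (49.2 to 56.2% of entries) were left out.

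Counts were tested with edgeR 4.0.16 in R 4.3.3: filterByExpr (minimum count 10, minimum total 15), TMM, robust glmQLFit and glmQLFTest, two-sided, group as the only term, Benjamini-Hochberg over 17534 genes. CPM uses TMM-scaled library sizes, and SE is the log2 fold change divided by the root of F. Pairs of libraries within a group differed beyond counting error (chi-square divided by its degrees of freedom: 40.5 to 189), so none was treated as a repeat deposit of another. Alternatives were other scalings and filters, DESeq2 1.42.0, limma-voom 3.58.1, a replicate block, a depth term, the shallower libraries and each library left out in turn. The test was tested on simulated data (17382 genes with a common spread, 200 changed, 12 false calls). Positions, lengths and shared stretches came from GENCODE mouse release M21, in which 52 members were found by symbol, and promoters from RefSeq.

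Members and lists were chosen with earlier results of these data known. Named were members with a mean of at least 1 CPM or an unadjusted p under 0.05, members at 0 reads, and up to 4 genes with the lowest p of each list; Psmb5, Psmb6, Psmb7 and the ratios were added after values were seen. Intervals and limits cover counting error only, and the reads carry no molecular identifiers. Some items are not reported here.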

Additional observations from a re-analysis of the deposited data

How the results depend on the processing

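The count of members called stayed at 0 under every alternative but a block of crossed numbers. In the 4 libraries whose titles share a number, deviations of burn 1 and control 1 correlated at -0.47 over 17534 genes, so libraries of the same number did not deviate together; a replicate block on them called 0 members and 4 genes higher, and the crossed pairing, added after seeing the data, called 103 genes higher and 310 lower, with 5 members (1 class I, 4 class II). Over all genes, the 4 higher calls became 14 with no filter, 28 with DESeq2, 17 with a depth term, 11 in the 4 shallower libraries, 7 at an adjusted p under 0.1 and 1 to 6 when a library was left out (1 without burn 2 or without any of the controls); the 0 lower calls became 21 with a depth term and 4 in the shallower libraries. The cause was not tested. The class medians moved from -0.05 to 0.06 for class I and from -0.01 to 0.38 for class II.

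Over 15 settings, 31 named members gave 465 values with 0 called, and 43 of them, in 13 members, changed sign. H2-M3 became 0.00157 with RLE scaling, 0.00673 with a stricter filter, 0.0122 with the block and 0.0124 in the shallower libraries. H2-Q10 became -0.00509 with upper quartile scaling, -0.000369 with no filter, -0.203 with the block and -0.203 in the shallower libraries, where H2-Q7 became 0.165 and 0.148 and Tap2 0.0331 in both. H2-T22 became -0.00479 with upper quartile scaling, -0.00622 with no filter, -0.00480 with limma-voom and -0.000610 with a depth term. Leaving out a library gave ranges of -0.13 to 0.19 for B2m, -0.0421 to 0.27 for H2-DMa, -0.11 to 0.22 for H2-DMb1, -0.42 to 0.23 for H2-K2, -0.0650 to 0.47 for H2-M11, -0.0595 to 0.0594 for H2-M3, -0.52 to 0.10 for H2-Ob, -0.26 to 0.22 for H2-Q10, -0.23 to 0.0351 for H2-Q7, -0.0504 to 0.11 for H2-T22, -0.22 to 0.14 for H2-T23, -0.00568 to 0.22 for Psmb8 and -0.16 to 0.0113 for Tap2. Where 1 group kept 2 libraries, their spread was pooled with the other group.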
